A study of Arabidopsis thaliana with 8 samples.

Results

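The genes described here encode 6 assembly factors of the photosynthetic machinery of Arabidopsis thaliana: AT1G22700, PSB27 (AT1G03600), AT1G54500, AT3G47650, Cpn60beta3 (AT5G56500) and Cpn60beta4 (AT1G26230). They were taken by name from the 692 of 3439 array probes that the platform annotation assigns to exactly 1 gene, and each of the 6 has 1 such probe. Total RNA of wild-type plants of ecotype Columbia 0 was measured on 8 arrays, 4 of them for plants at 4 weeks of age and 4 for plants at 3 weeks, each numbered 1 to 4. The labels used here name no organ, growth condition or treatment, and do not say that the 4 samples of an age were separate plants, so the p-values cover the spread among these 8 samples, part or all of which may be technical.

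Photosynthetic complexes are built from subunits encoded in the nucleus and in the plastid, and their assembly depends on proteins that are not part of the finished complex. In the thylakoid membrane such factors hold partly built photosystems, deliver cofactors or keep a step from running too early. In the stroma, newly made large subunits of Rubisco, the enzyme that fixes carbon dioxide, are folded inside the plastid chaperonin and then kept in an assembly-ready state by further chaperones. AT1G22700 encodes a thylakoid protein with tetratricopeptide repeats that is needed for photosystem I to accumulate. PSB27 is a lumenal protein that binds photosystem II while it is being assembled or repaired. AT1G54500 encodes a membrane-anchored rubredoxin, a small iron protein, required for photosystem II. AT3G47650 is the Arabidopsis homologue of BSD2 of maize, a zinc-binding chaperone of Rubisco assembly. Cpn60beta3 and Cpn60beta4 are beta subunits of the plastid chaperonin, and Cpn60beta4 is known for folding a subunit of the NDH complex, which carries electrons around photosystem I.

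The 6 genes did not move together between the ages. Nor did the probes as a whole, of which 29.2% passed as higher and 27.4% as lower at 4 weeks. AT1G22700, listed at 0 on every array of 3 weeks, was measured on every array of 4 weeks, whereas AT3G47650 and AT1G54500 fell. PSB27 was lower at 4 weeks within each replicate number but overlapped between the ages as a whole. The chaperonin subunits were brighter at 4 weeks in the deposited intensities, as were 77.9% of all probes by their mean. The place of these subunits among the other probes of the array did not pass the test.

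The arrays of the 2 ages differ as a whole, which bears on every value below. The median deposited intensity, in the arbitrary linear unit of the table, ran from 0.39 to 0.445 on arrays of 4 weeks and from 0.0239 to 0.0308 on arrays of 3 weeks. An array of 4 weeks had 460 to 471 probes listed at 0, and an array of 3 weeks 926 to 1099. Of the 3439 probes, 2680 (77.9%) had the higher deposited mean at 4 weeks. Each gene is therefore given in 3 ways: its deposited intensity, its rank among all probes of its own array as a percentile (the brightest probes are near 100, and probes tied at 0 share a rank), and its log2 value after quantile normalization with a floor of 0.123. A log2 difference is 4 weeks minus 3 weeks on that normalized scale, so it says how a probe moved relative to the others, and it is tested in limma with Benjamini-Hochberg adjustment over all 3439 probes and a threshold of 0.05. Rank and deposited intensity are tested with a two-sided exact permutation test over the 8 arrays, whose smallest possible p is 0.0286, reached when the ages do not overlap. "Rose" and "fell" are used of genes past the limma threshold. A rank compares the brightness of probes, not the abundance of transcripts, and in total RNA of bulk samples fewer cells of a type and less RNA per cell cannot be told apart.

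In limma 1 of the 6 rose, 2 fell and 3 did not pass. Among all probes 56.6% passed, 29.2% higher and 27.4% lower at 4 weeks, so 3 passing genes of 6 is near the share of the whole table. The split of the calls depends on the scaling: 51.6% of the passing probes were higher at 4 weeks after quantile normalization, 88.5% without scaling, 37.8% with equal medians and 50% after cyclic loess. Compared with no scaling, equal medians lower the log2 difference of every probe that stays above the floor by the same amount. The median log2 difference of the 6 was -0.50, against 0.00 for all probes. By rank, 1 of the 6 lay wholly above and 2 wholly below at 4 weeks, where 30.8% and 37.2% of all probes did.

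AT1G22700, the photosystem I assembly factor, measured 1.06, 0.955, 0.782 and 0.896 in deposited intensity at 4 weeks (replicates 1 to 4) and was listed at 0 on all 4 arrays of 3 weeks. The 4 arrays of 4 weeks were close to each other, with a mean of 0.923 ± 0.116 (SD, n = 4), and the ages did not overlap. In deposited intensity 68.3% of all probes lay wholly above at 4 weeks, as AT1G22700 did. No fold is given, since a value of 0 leaves the level unknown. Its rank percentile was 83.7, 80.8, 77.5 and 81.5 at 4 weeks and lay between 13.5 and 16.0 at 3 weeks, where it is the shared rank of the zeros. The difference in mean rank was 66.0 percentile points, with an exact permutation p of 0.0286 (0.042 adjusted over all probes). In limma the log2 difference was 2.21 (SE 0.08, adjusted p = 5.00e-07), a size set by the floor on the 3-week side. All 4 values of 3 weeks were the floor itself, with an SD of 0.00, so the SE and p-value take no spread from them. The log2 difference was 2.90 with unscaled arrays, 2.0 with medians made equal and 0.77 after cyclic loess. It passed in all 3, each starting from the same zeros at 3 weeks. AT1G22700 was not alone in its zeros: 520 probes had only zeros at 3 weeks, and 288 of these were above 0 on every array of 4 weeks. Ordered by mean rank at 4 weeks, AT1G22700 was number 37 of these 288 and number 11 of the 72 that have 1 gene. Their median rank percentile at 4 weeks was 49.4, against a mean of 80.9 ± 2.6 (SD, n = 4) for AT1G22700.

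**Figure D1:**
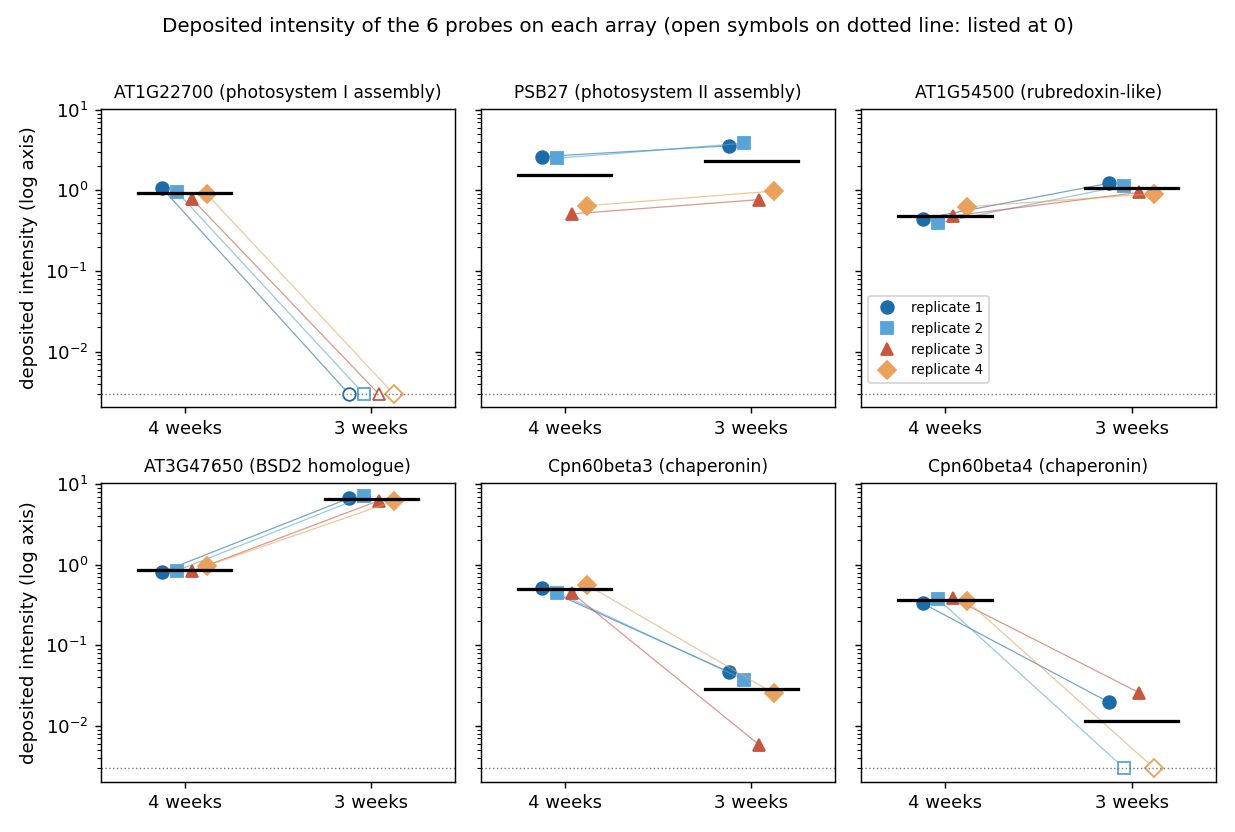
Deposited intensity (log axis, arbitrary unit) of the 6 probes at 4 and 3 weeks; each symbol is 1 array, lines join arrays of the same replicate number, black bars are means of the 4 arrays, and open symbols on the dotted line are arrays where the probe is listed at 0. AT1G22700 is at 0 on all arrays of 3 weeks, AT3G47650 and AT1G54500 are lower at 4 weeks on every array, and PSB27 splits into replicates 1 and 2 above replicates 3 and 4 at both ages.

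PSB27, of photosystem II assembly, had intensities of 2.63, 2.51, 0.512 and 0.647 at 4 weeks, against 3.58, 3.85, 0.769 and 0.981 at 3 weeks. At both ages replicates 1 and 2 lay far above replicates 3 and 4, and the ages overlapped. The mean of replicates 1 and 2 was 4.43 times that of replicates 3 and 4 at 4 weeks and 4.24 times at 3 weeks, a wider gap than that between the ages, whose means differ 1.46-fold. Within each replicate number the intensity was lower at 4 weeks, at 0.735, 0.652, 0.666 and 0.659 of the 3-week value. The mean was 1.57 ± 1.15 at 4 weeks and 2.29 ± 1.64 at 3 weeks (SD, n = 4 each), and the exact permutation p of that difference was 0.514.

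The rank of PSB27 split in the same way. It was at percentiles 96.1, 95.9, 60.8 and 70 at 4 weeks and at 97.1, 97.2, 92.3 and 93.3 at 3 weeks. The mean rank difference was -1.1 points in replicates 1 and 2, which stood near the top of the array at both ages, and -27.4 points in replicates 3 and 4. The intensity ratios above were alike in both pairs, so the unequal rank differences do not show unequal changes in intensity. Over all arrays the rank difference was -14.3 points (exact permutation p = 0.286). The log2 difference was -1.26 in limma, with a 95% interval from -3.32 to 0.81 and an adjusted p of 0.268. Fitted within replicates 1 and 2 alone, limma gave -0.55 (adjusted p = 0.00836), and within replicates 3 and 4 alone -1.95 (adjusted p = 0.0119). These p-values cover the spread within a pair of replicates only, not the gap between the pairs. With replicates 1 and 2, and 3 and 4, averaged, limma gave -1.26 (SE 1.36, adjusted p = 0.535). Over all arrays the limma difference of PSB27 was -0.56 without scaling (adjusted p = 0.633). With medians made equal (median scaling) it was -4.50 and passed (adjusted p = 0.00369), and after cyclic loess it was 0.19 (adjusted p = 0.83). The -4.50 is the unscaled difference shifted by the gap between the array medians of the ages, so it is not separate support for a fall.

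PSB27 was the only one of the 6 with replicates 1 and 2 both above replicates 3 and 4 at both ages. Of the 1840 probes above 0 on all arrays, 245 (13.3%) had that order and 79 (4.29%) the opposite one. For PSB27 the lower of replicates 1 and 2 was 3.88 times the higher of replicates 3 and 4 at 4 weeks and 3.64 times at 3 weeks. The only other probe with both ratios at least as large was that of AT2G44760, with 4.76 and 24.1, a gene named after its values were seen.

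AT1G54500, the rubredoxin, had intensities of 0.445, 0.392, 0.483 and 0.627 at 4 weeks, against 1.23, 1.15, 0.945 and 0.909 at 3 weeks. Every array of 4 weeks lay below every array of 3 weeks. The mean was 0.487 ± 0.101 at 4 weeks and 1.06 ± 0.155 at 3 weeks (SD, n = 4 each), with an exact permutation p of 0.0286 (0.0371 adjusted over all probes). Only 8.69% of all probes were wholly below in deposited intensity at 4 weeks, and AT1G54500 and AT3G47650 were the 2 of the 6 that were. Within replicate numbers the ratio of 4 weeks to 3 weeks was 0.363, 0.341, 0.512 and 0.69.

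The rank of AT1G54500 also separated the ages. It stood at percentiles 50.8, 44.9, 58.5 and 68.8 at 4 weeks, around the middle of the array, and at 94.0, 93.7, 93.1 and 92.8 at 3 weeks. The difference was -37.7 points (exact permutation p = 0.0286, 0.042 adjusted over all probes). In limma AT1G54500 fell by 2.43 on the log2 scale (SE 0.20, adjusted p = 4.39e-05). The size depended on the scaling, with -1.13 without scaling, -5.06 after median scaling and -1.97 after cyclic loess, and the fall passed in each.

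AT3G47650, the BSD2 homologue of Rubisco assembly, had intensities of 0.815, 0.845, 0.834 and 0.972 at 4 weeks, against 6.65, 7.03, 6.22 and 6.12 at 3 weeks. The arrays of an age were close to each other and the ages were far apart. The coefficient of variation was 8.21% at 4 weeks and 6.45% at 3 weeks, against 73.1% and 71.7% for PSB27. The intensity at 4 weeks was 0.123, 0.12, 0.134 and 0.159 of that at 3 weeks in replicates 1 to 4, and the exact permutation p was 0.0286.

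The rank percentile of AT3G47650 was 75.1, 76.4, 79.4 and 83.4 at 4 weeks and lay between 97.9 and 98.1 at 3 weeks. The difference in mean rank was -19.4 points (exact permutation p = 0.0286, 0.042 adjusted over all probes), and no array of 4 weeks reached the 3-week range. AT3G47650 fell by 3.40 on the log2 scale in limma (95% interval -3.65 to -3.15, adjusted p = 3.15e-07), with -3.54 in replicates 1 and 2 alone and -3.24 in replicates 3 and 4 alone. After cyclic loess the fall was -1.19 and after median scaling -6.84, and it passed in both.

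**Figure D2:**
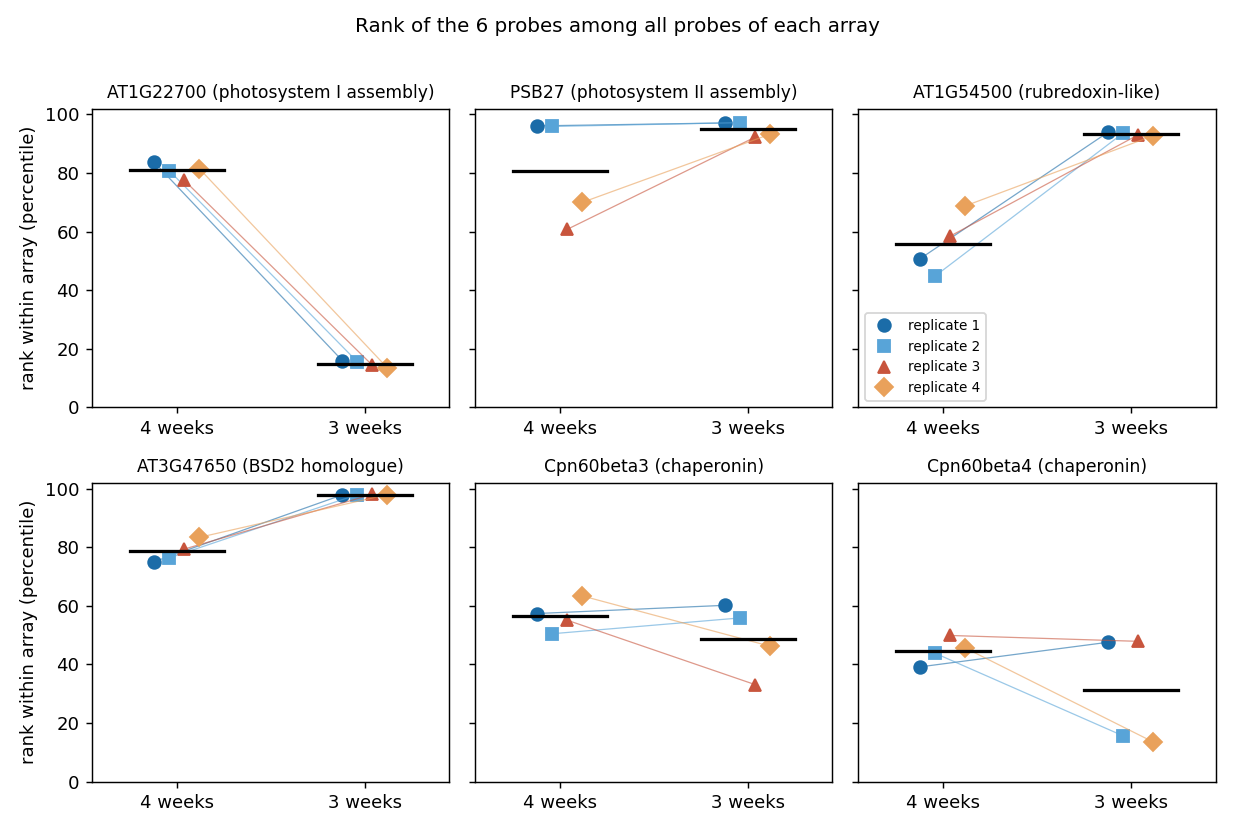
Rank percentile of the 6 probes among all probes of each array at 4 and 3 weeks; symbols are arrays, lines join arrays of the same replicate number and black bars are means. AT1G54500 lies at percentiles of 44.9 to 68.8 at 4 weeks and 92.8 to 94.0 at 3 weeks, while the chaperonin subunits overlap between the ages.

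PSB27, AT1G54500 and AT3G47650 were all at percentile 90 or above of the array at 3 weeks, and most probes there stood lower at 4 weeks. Of the 334 probes with a mean 3-week rank at percentile 90 or above, 280 (83.8%) had a lower mean rank at 4 weeks, with a median difference of -14.1 points, and 270 (80.8%) fell in limma. The rank differences of these 3 genes, -14.3, -37.7 and -19.4 points, stand beside that median. The part of brightness in the falls was not tested.

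The chaperonin subunits were dim at 3 weeks. Cpn60beta3 had intensities of 0.518, 0.451, 0.442 and 0.56 at 4 weeks, against 0.0467, 0.0376, 0.00587 and 0.0254 at 3 weeks. Every array of 4 weeks was above every array of 3 weeks, with an exact permutation p of 0.0286. No single fold is given, because all 4 deposited values of 3 weeks were 0.0467 or less and the ratio within replicate numbers ran from 11.1 to 75.2. Of all probes, 68.3% lay wholly above in deposited intensity at 4 weeks, as Cpn60beta3 did. By rank its ages overlapped. Cpn60beta3 stood at percentiles 57.4, 50.5, 55.1 and 63.4 at 4 weeks and at 60.2, 55.9, 33.1 and 46.2 at 3 weeks, a difference of 7.7 points (exact permutation p = 0.314). Within replicates 1 and 2 the rank difference was -4.1 points and within replicates 3 and 4 it was 19.6 points, so its direction differed between the pairs. Ranked among probes above 0 on the array alone, the difference was 22.2 points and the ages did not overlap (exact permutation p = 0.0286). That ranking leaves out 26.9% to 32% of the probes at 3 weeks and 13.4% to 13.7% at 4 weeks. This by itself lowers the percentile of a dim probe more at 3 weeks. The log2 difference in limma was 0.33, with a 95% interval from -0.31 to 0.98 and an adjusted p of 0.344.

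Cpn60beta4 had intensities of 0.332, 0.379, 0.388 and 0.353 at 4 weeks. At 3 weeks it had 0.0196 and 0.0259 in replicates 1 and 3 and was listed at 0 in replicates 2 and 4. The arrays of 4 weeks all lay above those of 3 weeks, and no fold is given because of the zeros. Its rank percentile was 39.2, 43.8, 49.9 and 45.6 at 4 weeks, against 47.6, 15.6, 47.9 and 13.5 at 3 weeks. On the 2 arrays of 3 weeks where it was above 0, it thus ranked within the range of 4 weeks. The rank difference was 13.5 points (exact permutation p = 0.371), and the log2 difference in limma was 0.25, with a 95% interval from -0.30 to 0.80 and an adjusted p of 0.408.

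Without scaling between arrays both chaperonin subunits passed, with log2 differences of 2.0 for Cpn60beta3 (adjusted p = 4.10e-07) and 1.56 for Cpn60beta4 (adjusted p = 1.22e-07). In that setting both lay below the floor of 0.123 on every array of 3 weeks, as did AT1G22700 and the median of each 3-week array. Their differences are then fixed by the floor and the 4-week intensity, a fall could not have shown, and they do not measure the size of a change. The median log2 difference over all probes in that setting, 1.28, is bounded by the floor in the same way.

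**Figure D3:**
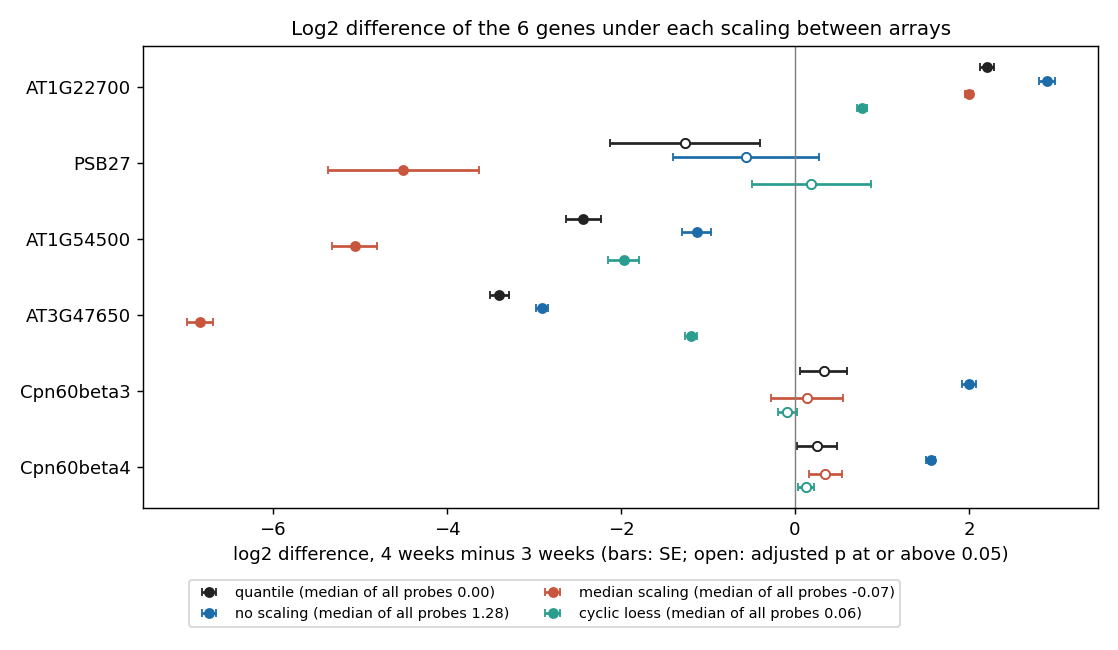
Log2 difference (4 weeks minus 3 weeks) of the 6 genes after quantile normalization, with unscaled arrays, with equal medians and after cyclic loess; bars are standard errors from limma and open symbols did not pass an adjusted p of 0.05. AT1G22700, AT1G54500 and AT3G47650 keep their direction under all 4, whereas PSB27 and Cpn60beta3 turn under cyclic loess.

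**Figure D4:**
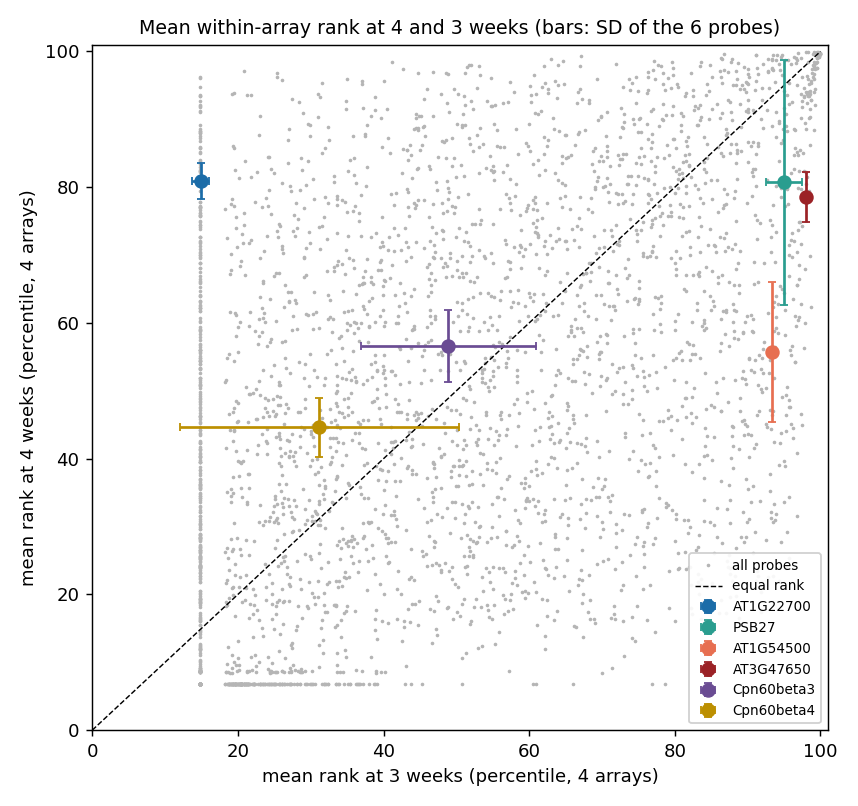
Mean rank percentile at 4 weeks (vertical) against 3 weeks (horizontal) for all 3439 probes in grey and the 6 genes in colour, with SD over 4 arrays; the dashed line is equal rank. AT1G22700 lies at 80.9 against 14.9 on the column of probes at 0 at 3 weeks, and AT1G54500 (55.7 against 93.4) is the farthest below the line of the 6.

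The genes whose profile over the 8 arrays was most like that of each member were sought among 253 other 1-gene probes above the floor on all arrays, by the root mean square distance between log2 values centred on each gene's own mean. They were picked by these same values. A log2 difference near that of the member therefore follows from the choice and is not separate support. For AT3G47650 these were AT1G64430 at a distance of 0.16 and AT1G24040 at 0.19, with log2 differences of -3.19 and -3.35. For AT1G54500 they were AT1G32730 at 0.19 and AT3G51510 at 0.21, with -2.26 and -2.17. This likeness was found on the quantile-normalized scale and varied with the scaling. Without scaling AT3G51510 had -0.26, against -1.13 for AT1G54500. After cyclic loess AT1G32730 had -0.34, against -1.97 for AT1G54500. The genes nearest to PSB27 were farther away, AT3G54210 of the plastid ribosome at 0.59 and HEMA3, a glutamyl-tRNA reductase of tetrapyrrole synthesis, at 0.80. Both fell, with log2 differences of -2.22 (adjusted p = 0.0276) and -2.29 (adjusted p = 0.00371), where PSB27 did not pass. Without scaling, limma gave -1.16 for AT3G54210, which did not pass (adjusted p = 0.182), and -1.27 for HEMA3, which did (adjusted p = 0.0344). For Cpn60beta3 they were AT3G16310 at 0.24, with a log2 difference of 0.20 that did not pass (adjusted p = 0.431), and AT4G24750 at 0.26, which rose by 0.71 (adjusted p = 0.00333). The difference of AT4G24750 was 2.73 without scaling, which passed. It was 0.02 after median scaling and 0.10 after cyclic loess, and passed in neither. AT1G22700 and Cpn60beta4 were at the floor on some arrays and were not matched.

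Of 79 loci listed as assembly factors and chaperones of photosystems, the cytochrome b6f complex, ATP synthase, NDH, Rubisco and plastid iron-sulphur clusters, 11 had a 1-gene probe, the 6 members among them. Of the other 5, 1 rose, 1 fell and 3 did not pass. LPA19, a relative of PSB27 that acts in processing a reaction centre protein of photosystem II, fell by 1.40 (SE 0.14, adjusted p = 0.000109). Its deposited intensity was nonetheless higher, with 0.194, 0.126, 0.145 and 0.169 at 4 weeks against 0.11, 0.07, 0.0464 and 0.0485 at 3 weeks, and without scaling its log2 difference turned to 0.35 (adjusted p = 0.0475). In mean rank LPA19 stood at percentile 24.1 at 4 weeks and 63.7 at 3 weeks. CCB3, which helps to attach haem to the cytochrome b6f complex, rose by 0.53 (SE 0.09, adjusted p = 0.00176), with 0.41, 0.369, 0.328 and 0.275 at 4 weeks and zeros on 3 of 4 arrays of 3 weeks. Its zeros were raised to the floor, so the size and SE of this rise depend on the floor. The difference was 1.48 without scaling and 0.34 after cyclic loess. AT1G49380, another haem attachment factor, and CRR41, of NDH assembly, were listed at 0 on all 4 arrays of 4 weeks and on 2 and 3 arrays of 3 weeks. AT3G29185, of ATP synthase assembly, was listed at 0 on all 8.

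Of 27 listed subunits and partners of the complexes these factors serve, 3 were measured. PSAN of photosystem I and PSBY of photosystem II fell, with log2 differences of -2.64 (adjusted p = 8.46e-06) and -3.96 (adjusted p = 0.00501), and PSBW of photosystem II rose by 1.74 (adjusted p = 1.34e-06), which turned to -3.24 after median scaling. All 3 had a mean 3-week rank at percentile 97.9 or above. Of probes at percentile 90 or above, 80.8% fell in limma. After cyclic loess PSAN had -0.78 and PSBY -1.95, and both passed. PSAN fell where AT1G22700, the assembly factor of the same photosystem, rose, with 2.54 ± 0.333 at 4 weeks and 19.2 ± 1.62 at 3 weeks (SD, n = 4 each). PSBY had 1.3, 1.34, 0.199 and 0.242 at 4 weeks and 9.99, 9.91, 3.53 and 3.85 at 3 weeks, so replicates 1 and 2 lay above replicates 3 and 4 there too. None of 5 listed root markers and none of 5 flower markers had a 1-gene probe, so the organs sampled could not be read from these markers.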

How the data were processed

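The deposited file is a single intensity table, linear in scale, that holds 3439 probes for the 8 samples. Scanning, background correction and scaling by the authors are not given here; from the values, intensities run from 0 to a shared ceiling just under 100. Genes came from the platform annotation, in which 692 probes have 1 gene, 870 several and 1877 none here; 690 of the 692 matched a RefSeq table by Entrez number. Intensities were quantile-normalized, raised to a floor of 0.123 (the normalized value at rank 1099, the largest number of zeros on an array) and converted to log2; 1388 probes were above the floor on all arrays. Each probe was fitted with limma 3.58.1 in R 4.3.3 (age only). Exact permutation tests used the 70 splits of 8 arrays. Both were tested on simulated data. The number of arrays limits the precision.

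Deviations of same-numbered arrays of the ages had correlations of 0.171, 0.213, 0.171 and 0.236 over all probes. Correlations of differently numbered arrays are not given here, so these values do not show that a number marks a pair. The labels do not say what a number marks either. Taking the replicate numbers as pairs is therefore an assumption. The members and gene lists were chosen with earlier results of these data known. All members are named, with the 2 nearest profiles of each and every measured gene of the lists; AT2G44760 was added after its values were seen. Alternatives covered the scaling, the floor, filters, array weights, the replicate block, the replicate pairs and each array left out.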

Additional observations from a re-analysis of the deposited data

Results flagged for a closer look

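Of 23 groups of 4 arrays examined for the intensity and the rank of the 6 genes, 0 held a sample far from the others by Dixon's criterion for the gap as a share of the range; chance gives about 1 in 20.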

How the results depend on the processing

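The falls of AT3G47650 and AT1G54500 passed in limma under all 19 alternatives, and the rise of AT1G22700 under the 17 that kept its probe. In those 17 the deposited 3-week values of AT1G22700 were all 0, so its 3-week side held no measured spread. With each array left out in turn, the log2 differences ran from -3.67 to -3.21 for AT3G47650, from -2.73 to -2.28 for AT1G54500, from 2.14 to 2.35 for AT1G22700, from -1.83 to -0.76 for PSB27, from 0.10 to 0.48 for Cpn60beta3 and from 0.12 to 0.41 for Cpn60beta4. The rank differences ran from -19.4 to -7.6 points for PSB27, from 2.4 to 11.5 for Cpn60beta3 and from 7.6 to 19.1 for Cpn60beta4, and the difference in deposited intensity of PSB27 from -1.23 to -0.202. Without scaling between arrays, Cpn60beta3 (2.0) and Cpn60beta4 (1.56) passed, 3 members were higher, and 2188 probes were higher and 285 lower, where quantile normalization gave 1004 and 942. After median scaling, which lowers all probes that stay above the floor alike, PSB27 passed at -4.50, and 710 probes were higher and 1170 lower. Cyclic loess turned PSB27 to 0.19 and Cpn60beta3 to -0.09, neither past the threshold. Among the probes above 0 on all arrays 523 were higher and 932 lower, and among those above the floor on all arrays 505 were higher and 563 lower; 0 members were higher in either set, since AT1G22700 is not in it. Replicates 1 and 2 alone gave -0.55 for PSB27, which passed, and -0.15 for Cpn60beta3, which did not. Replicates 3 and 4 alone gave -1.95 for PSB27, which passed. With each of these pairs averaged, PSB27 did not pass in limma (adjusted p = 0.535). In that setting the adjusted p in limma was 0.0181 for AT1G54500, 0.00447 for AT3G47650 and 0.00344 for AT1G22700. The rank difference of Cpn60beta3 among probes above 0 was 22.2 points, in a ranking that leaves out more probes at 3 weeks than at 4 weeks. With the replicate block in limma PSB27 had an adjusted p of 0.0544, and the block changed no call of a member. For ranks the paired exact test cannot go below 0.125, and a test with 1 array left out cannot go below 0.0571, so those are given as values with no test. The file gives no background signal, so depth over background is unknown, and values of 0 bound nothing.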
